A study of Bos taurus with 33 samples.

Results

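The genes described here are the molecular chaperones and protein folding factors of the bovine endometrium. They were taken from the array annotation by symbol: every symbol that starts with HSP, DNAJ or PDIA, or with CCT or BAG followed by a digit, plus CALR, CANX, HYOU1 and SDF2L1. The rule found 67 genes, measured by 109 probe sets, of the 9162 genes that have a probe set with 1 symbol. A gene with more than 1 probe set (24 of the 67) is represented by the one with the highest mean over all arrays. No measured difference entered this choice of probe set. HSPG2 (perlecan, a matrix proteoglycan) and HSPBAP1 carry the HSP letters by name only and are not chaperones.

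Chaperones are proteins that bind other proteins while these fold, cross membranes or enter complexes. In the cytosol, HSP70 proteins such as HSPA8 take up unfolded chains that J-domain proteins (DNAJ) bring to them, BAG proteins help them let go, HSP90 finishes many signalling proteins, including steroid receptors, and the ring-shaped CCT chaperonin folds actin and tubulin. In the endoplasmic reticulum, where secreted proteins are made, HSPA5 and HSP90B1 hold new chains, CALR and CANX bind their sugars, and PDIA enzymes form and break disulphide bonds. The bovine endometrium secretes proteins that feed the conceptus before it attaches, and it responds to interferon tau, the type I interferon that the ruminant conceptus releases.

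The samples came from 33 Bavarian Simmental heifers, synchronised with cloprostenol, with 1 array per animal. In the biopsy experiment, a lipid rod that releases human interferon alpha (IFNA) was placed in the uterine horn of 3 heifers on day 14, the same rod without IFNA in 3 (placebo), and phosphate-buffered saline alone in 3 (PBS). Each of these arrays holds RNA of about 6 biopsies of 1 animal, taken on day 16. In the pregnancy experiment, heifers inseminated with sperm of 1 bull and found pregnant were slaughtered on day 12 (n = 5), day 15 (n = 3) or day 18 (n = 4), as were cyclic heifers that received sperm-free supernatant (n = 5, 3 and 4), and intercaruncular endometrium was taken. The bovine conceptus makes interferon tau, so human IFNA given for 2 days models only part of pregnancy. The part of the horn differed between the days (distal on day 12, medial on day 15, caudal on day 18), so day and part cannot be told apart.

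Values are log2 expression, and a difference of 1 is a doubling. They appear to have been normalised separately in 4 sets of arrays, the biopsies and the 3 days: over all 33 arrays the ranked values differ by an SD of up to 0.333, against 0.0511 to 0.0751 within a set. Tests were therefore made within a set, or between differences that each lie within one. The 3′ probe set of the GAPDH control exceeded the 5′ one by 1.03 to 3.87 in the biopsies. In the slaughter samples this difference, which can reflect RNA quality, was -0.16 to 0.56, so these tissues did not overlap. By day it was 0.22 to 0.56 on day 12, -0.16 to -0.04 on day 15 and -0.1 to 0.14 on day 18. Day 12 thus lay apart from the later days. The mean level of 10 epithelial markers ranged between 8.57 and 10.01 over the arrays, that of 8 stromal markers between 11.14 and 12.19 and that of 8 trophoblast markers between 3.82 and 4.56. These ranges pool the 4 sets, whose array medians lay at 6.5 on day 15 and 7.25 on day 18. Scaling and tissue content therefore cannot be told apart in them. Whole tissue was measured, so fewer cells of a type and less RNA per cell cannot be told apart.

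Chaperone genes passed the test in pregnant animals of days 15 and 18 and in no biopsy comparison, and the changes were small. On day 18, 11 of the 67 genes rose and 5 fell in pregnant animals by limma (Benjamini-Hochberg adjusted p below 0.05 over 24016 probe sets). These are 23.9% of the members, beside 23% of all genes (12.6% higher and 10.4% lower). On day 15, 6 rose and none fell, which is 8.96% of the members, beside 6.37% of all genes (4.04% higher and 2.34% lower). All 6 of those calls ended when the fit held only the 6 arrays of day 15. That fit estimates the spread between animals from fewer arrays and from that day alone, and what ended the calls was not tested. On day 12 none passed, beside 0.0109% of all genes, and 4 members (5.97%, beside 6.78% of all genes) had an unadjusted p below 0.05. None of the 67 passed in the biopsies, neither with IFNA against placebo (1.14% of all genes), with IFNA against PBS (1.21%), nor with placebo against PBS (0%). The share of members past the threshold on day 18 was thus close to that of the array as a whole. The 16 calls of day 18 were between 1.14-fold and 1.51-fold in either direction, and no member differed by 1 log2 or more in any of these 6 comparisons.

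**Figure D1:**
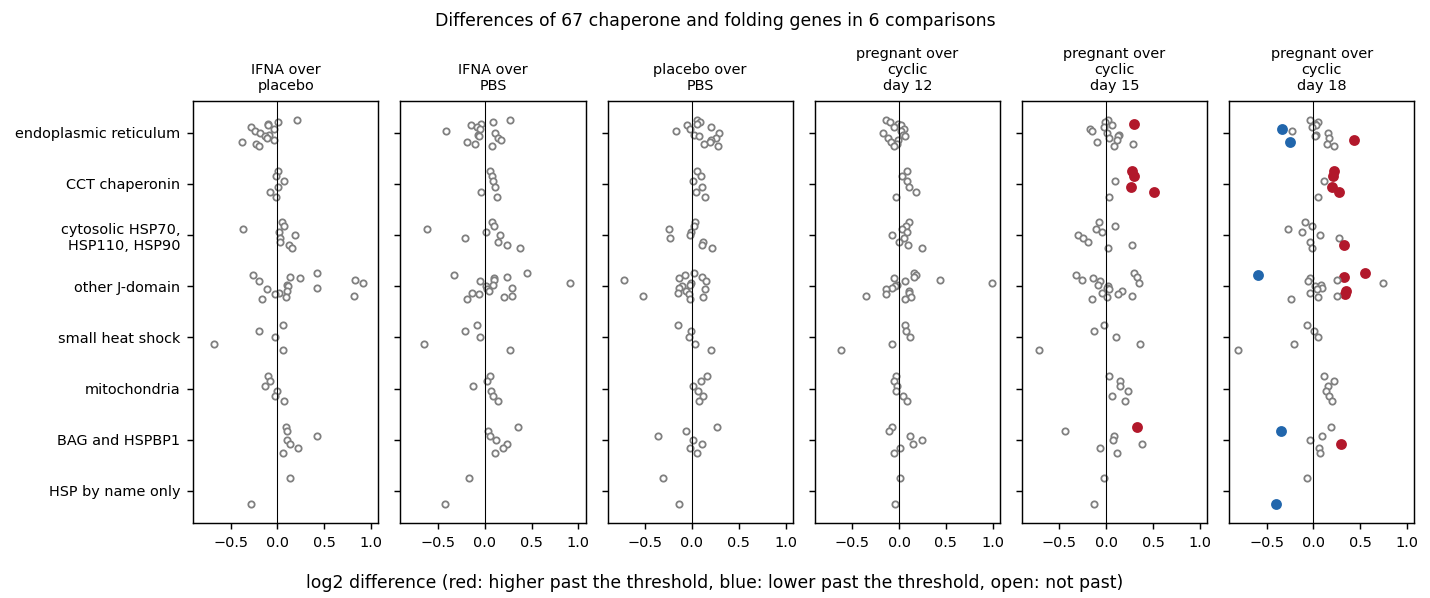
Log2 differences of the 67 genes (x axis) by role (rows) in 6 comparisons, the first group of each title over the second. Filled points passed the threshold: 6 red points on day 15, 11 red and 5 blue on day 18, and none in the 3 biopsy comparisons or on day 12.

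Of the 8 role groups, the CCT chaperonin was the only one with most of its members past the threshold. Of the 6 subunits with a CCT symbol, the same 4 (CCT2, CCT3, CCT5 and CCT6A) were higher in pregnant animals on day 15 and again on day 18. Over all genes, 4.04% were higher on day 15 and 12.6% on day 18. They are the only members called on both days. Subunits under other symbols fall outside the rule and are not counted. CCT6A stood at 10.35, 10.20 and 10.52 in the pregnant animals of day 15, against 9.93, 9.78 and 9.84 in the cyclic ones. All pregnant animals were above all cyclic animals, and the difference was 0.51 ± 0.109 (SE), or 1.42-fold (limma adjusted p = 0.00778). CCT2 stood at 10.04, 10.09 and 10.15 in pregnant animals and at 9.78, 9.79 and 9.89 in cyclic animals, a difference of 0.27 ± 0.0700 (adjusted p = 0.0241, limma). The differences of CCT3 and CCT5 on that day were 0.29 ± 0.0758 and 0.26 ± 0.0661 (limma adjusted p = 0.0254 and 0.0216), and neither gene's groups overlapped.

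On day 18 the differences of these subunits lay between 0.20 and 0.27. CCT5 stood at 10.27, 10.43, 10.40 and 10.34 in pregnant animals, against 10.19, 10.14, 10.19 and 10.14 in cyclic animals, with no overlap (0.20 ± 0.0572, limma adjusted p = 0.0197). CCT2 rose by 0.22 ± 0.0606 and CCT3 by 0.21 ± 0.0656 (limma adjusted p = 0.0124 and 0.0262), also without overlap. CCT6A overlapped, with 10.26 in the lowest pregnant animal and 10.26 in the highest cyclic one (0.27 ± 0.0945, limma adjusted p = 0.0474). CCT4 and CCT8 did not pass on either day: their differences were 0.10 and 0.03 on day 15, and 0.11 and 0.05 on day 18.

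These calls rest on few animals. On day 15 the CCT6A call ended without pregnant animal 3 (adjusted p = 0.0561, limma), and those of CCT2, CCT3 and CCT5 each ended in 4 of 6 fits that left out 1 animal, all of them without cyclic animal 2 or without pregnant animal 3. The others were cyclic animal 1 for CCT2 and CCT5, cyclic animal 3 for CCT3, pregnant animal 1 for CCT3 and CCT5, and pregnant animal 2 for CCT2. On day 18 the calls ended in 2 to 6 of 8 such fits, for all 4 genes without pregnant animal 2, and all 4 ended in the fit on the 8 arrays of that day alone (limma adjusted p between 0.0686 and 0.126). The day 18 calls of CCT3, CCT5 and CCT6A also ended without pregnant animal 3 or cyclic animal 2, those of CCT2, CCT3 and CCT6A without cyclic animal 3, those of CCT3 and CCT6A without cyclic animal 4, and that of CCT6A without cyclic animal 1. The CCT6A call of day 18 ended too with quantile normalisation and with array weights (limma adjusted p = 0.0562 and 0.0746). The differences of these 4 genes stayed positive with any 1 animal left out, at 0.22 or more on day 15 and at 0.17 or more on day 18.

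**Figure D2:**
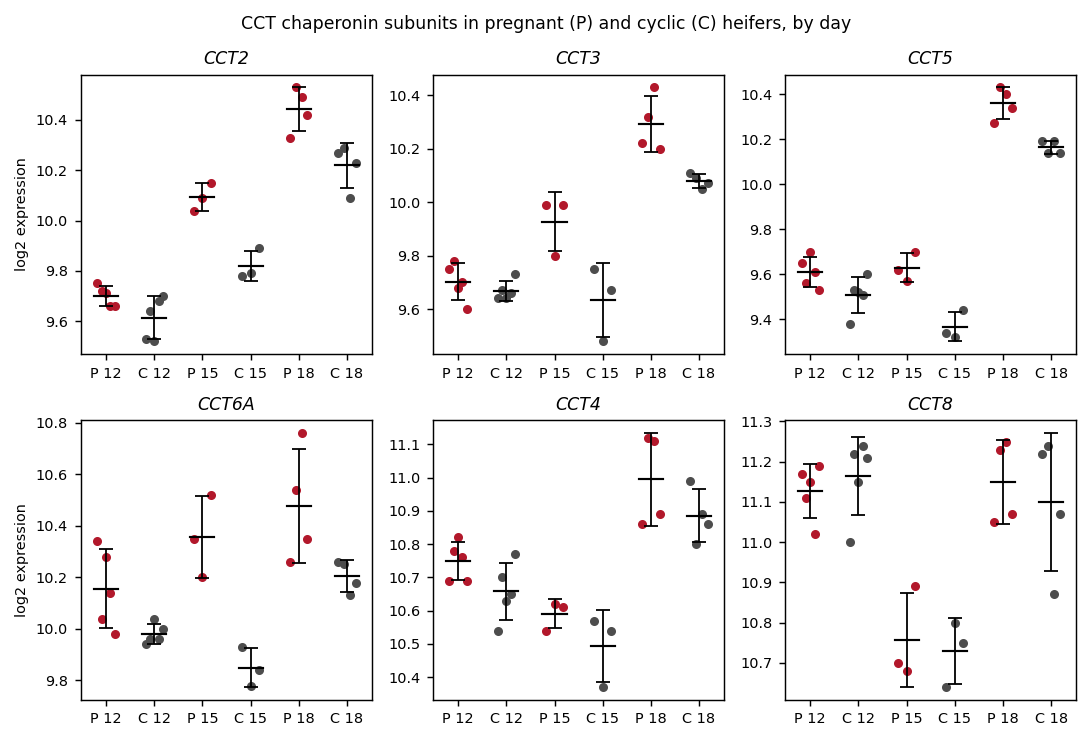
Log2 expression (y axis) of 6 CCT subunits in each pregnant (P, red) and cyclic (C, grey) heifer on days 12, 15 and 18, with mean and SD as bars; days were normalised separately. In CCT2, CCT3, CCT5 and CCT6A the pregnant animals of day 15 all sit above the cyclic ones.

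With IFNA the CCT genes did not move detectably. Against placebo the 6 differences lay between -0.08 and 0.07, and their 95% intervals together spanned -0.40 to 0.41. CCT2 stood at 10.20, 10.56 and 10.44 with IFNA, 10.49, 10.48 and 10.22 with placebo, and 10.35, 10.39 and 10.30 with PBS, so the 3 groups overlapped. The IFNA difference of CCT2 minus its pregnancy difference was -0.27 ± 0.119 for day 15 and -0.22 ± 0.112 for day 18 (limma adjusted p = 0.329 and 0.404). For CCT6A it was -0.58 ± 0.170 for day 15 (limma adjusted p = 0.119), so a gap between IFNA and pregnancy was not shown for these subunits. With limma's array weights, CCT5 and CCT6A passed in that comparison.

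Of the 15 endoplasmic reticulum genes, 1 was higher and 2 were lower in pregnant animals of day 18, and 12 did not pass, beside 23% of all genes past the threshold. PDIA3, an oxidoreductase that works with CALR and CANX on glycoproteins and also helps load MHC class I molecules, stood at 11.42, 11.59, 11.51 and 11.40 in pregnant animals and at 11.05, 11.06, 11.02 and 11.05 in cyclic animals. The groups lay apart, with the cyclic animals within 0.04 of each other, and PDIA3 had the smallest p-value of all members (0.44 ± 0.0734, or 1.35-fold, limma adjusted p = 0.000221). PDIA4, a related oxidoreductase, stood at 9.48, 9.53, 9.43 and 9.51 in pregnant animals, against 9.84, 9.71, 9.70 and 9.70 in cyclic animals. It was lower in every pregnant animal (-0.25 ± 0.0710, limma adjusted p = 0.0162). That call ended without cyclic animal 1 (adjusted p = 0.0570, limma), and the gene's other 2 probe sets, at -0.22 and 0.03, did not pass.

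DNAJC10, a J-domain reductase that breaks disulphide bonds of misfolded proteins before they are degraded, was also lower on day 18. It stood at 9.72, 9.69, 9.58 and 9.73 in pregnant animals, against 10.09, 10.10, 9.92 and 9.94 in cyclic animals. The difference was -0.33 ± 0.0811 (limma adjusted p = 0.00579), and its other 2 probe sets also fell (-0.28 and -0.36, limma adjusted p = 0.0147 and 0.0016). On day 15 the 1 gene of this group to pass was DNAJB11, a J-domain partner of HSPA5, at 6.86, 6.85 and 6.83 in pregnant animals, against 6.61, 6.40 and 6.64 in cyclic animals (0.30 ± 0.0722, limma adjusted p = 0.0176). That call ended without cyclic animal 2 or without pregnant animal 1. On day 18 DNAJB11 differed by 0.02 ± 0.0625.

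The major chaperones of this compartment did not pass on any day. HSPA5 stood at 11.39, 11.33, 11.78 and 11.51 in pregnant animals of day 18 and at 11.54, 11.42, 11.53 and 11.46 in cyclic animals, so that the groups overlapped (0.01 ± 0.0885, 95% interval -0.17 to 0.20). On the same day the differences were 0.03 for HSP90B1, -0.03 for CALR, 0.05 for CANX, 0.17 for HYOU1, a nucleotide exchange factor of HSPA5, and -0.02 for DNAJB9. DNAJC3, which restrains the stress kinase PERK, differed by 0.15. SDF2L1, which binds DNAJB11, differed by 0.22 ± 0.0817 (limma adjusted p = 0.0608); it passed after quantile normalisation (limma adjusted p = 0.0233) and where dim probe sets were left out. On day 15 the same genes lay between -0.03 for DNAJB9 and 0.14 for HSP90B1.

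**Figure D3:**
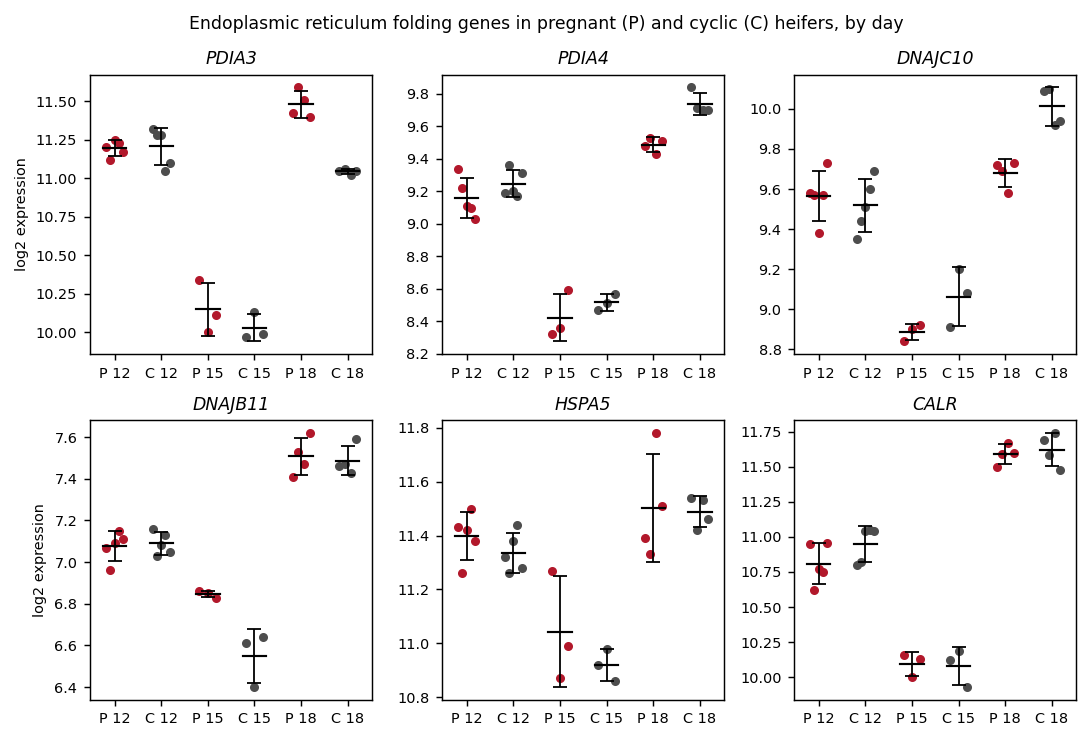
Log2 expression (y axis) of 6 endoplasmic reticulum folding genes in each pregnant (P, red) and cyclic (C, grey) heifer on days 12, 15 and 18, with mean and SD as bars; days were normalised separately. On day 18 PDIA3 lies higher and PDIA4 and DNAJC10 lie lower in all pregnant animals, while HSPA5 and CALR overlap.

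Other genes of the unfolded protein response and of endoplasmic reticulum folding, 28 of them measured, went both ways on day 18, with 8 higher and 5 lower in pregnant animals, beside 12.6% and 10.4% of all genes (median difference -0.01, against -0.02 over all genes). Those that rose include DDIT3, a transcription factor of prolonged stress (9.29 in pregnant and 8.89 in cyclic animals on average, 0.40 ± 0.0531, limma adjusted p = 1.35e-05), its target TRIB3 (0.50), ATF4 (0.21), PPP1R15A, which helps restart translation (0.34), and the secreted stress proteins MANF (0.61) and CRELD2 (0.53). QSOX1, a disulphide oxidase, and SSR3, part of the translocon, rose by 0.53 and 0.44. Those that fell were TXNDC5 (-0.36), FKBP14 (-0.36), SSR1 (-0.33), P4HB, a disulphide isomerase (-0.20), and SEL1L, a part of the machinery that removes misfolded proteins (-0.18). On day 15, MANF was higher (0.49) and SSR1 lower (-0.33), and no gene of the list passed in the biopsies or on day 12.

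Of the members that passed on day 18, the HSP70 partner DNAJA1, a farnesylated J-domain protein, had the largest rise. The J-domain gene DNAJC12 stood higher by more, with overlap, and did not pass (0.75 ± 0.485, limma adjusted p = 0.321). DNAJA1 stood at 10.76, 10.69, 11.09 and 10.53 in pregnant animals, against 10.11, 10.21, 10.21 and 10.32 in cyclic animals, without overlap (0.56 ± 0.107, or 1.47-fold, limma adjusted p = 0.000812). HSPA8, the constitutive HSP70, stood at 12.24, 12.57, 12.53 and 12.35 in pregnant animals and at 12.19, 12.13, 11.97 and 12.11 in cyclic animals (0.32 ± 0.0927, limma adjusted p = 0.0173). DNAJB1, a J-domain protein of the heat shock response, rose by 0.33 ± 0.108 with overlap (limma adjusted p = 0.0369), and its other probe set stood at 0.13. All 3 were also above the cyclic animals in every pregnant animal of day 15, by 0.30, 0.28 and 0.33, but did not pass (limma adjusted p = 0.184, 0.142 and 0.141). The calls of HSPA8 and DNAJB1 ended in 3 and 5 of 8 fits that left out 1 animal of day 18, in both genes without pregnant animal 2, without pregnant animal 3 or without cyclic animal 3, and in DNAJB1 without cyclic animal 2 or 4. The DNAJB1 call also ended on that day's 8 arrays alone, with array weights and with the mean of its probe sets (limma adjusted p = 0.0647, 0.0612 and 0.141).

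DNAJA4, a close relative of DNAJA1, went the other way on day 18. It stood at 9.50, 8.71, 9.44 and 9.07 in pregnant animals, against 9.55, 9.97, 9.70 and 9.86 in cyclic animals, a difference of -0.59 ± 0.144, or 0.664-fold (limma adjusted p = 0.00583). The call did not hold in the fit on that day's arrays alone (adjusted p = 0.0526, limma). DNAJC24, a co-factor of diphthamide synthesis, rose by 0.35 ± 0.106 and DNAJC5, a J-domain protein of secretory vesicles, by 0.34 ± 0.0941 (limma adjusted p = 0.0251 and 0.0145). The DNAJC24 call ended without cyclic animal 3 or 4 or pregnant animal 2 or 3, and its other 2 probe sets stood at 0.28 and -0.13. The other probe set of DNAJC5 had a difference of -0.18, and averaged over both the gene stood at 0.08. The calls of PDIA3, DNAJA1, DNAJA4, DNAJC10 and DNAJC5 were the 5 of 16 that held whichever animal of day 18 was left out.

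The stress-inducible and HSP90 genes did not pass. HSPA1A, the main inducible HSP70, differed by -0.30 ± 0.191 on day 15 and 0.07 ± 0.165 on day 18; it has near-identical relatives and 6 probe sets here, so its signal cannot be assigned with certainty. HSPH1, an HSP110 protein, differed by 0.02 and -0.02 on those days, HSP90AA1 by -0.08 and -0.09, HSP90AB1 by 0.09 and -0.02, and HSPB1 by -0.02 and -0.07. HSPA12B, an HSP70 relative of endothelial cells, differed by -0.27 ± 0.110 on day 18, with every pregnant animal below the cyclic ones (limma adjusted p = 0.0952), and passed on the 8 arrays of that day alone (limma adjusted p = 0.0426). HSPA2, an HSP70 of the testis that other tissues also express, was above the cyclic animals in every pregnant animal (0.28 ± 0.133, limma adjusted p = 0.159) and also passed on those 8 arrays (limma adjusted p = 0.0343).

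Of the small heat shock proteins, HSPB8, which works with BAG3 in selective autophagy, had the largest difference of any member on day 18. It stood at 9.25, 9.02, 8.64 and 9.38 in pregnant animals and at 10.17, 9.97, 9.57 and 9.82 in cyclic animals, which did not overlap. At -0.81 ± 0.309 (0.570-fold) it missed the threshold in the fit on 24 arrays (adjusted p = 0.0721, limma) and passed in that on the 8 arrays of day 18 (adjusted p = 0.0168, limma). Its differences on days 12 and 15 were -0.62 ± 0.277 and -0.71 ± 0.357, with overlap (limma adjusted p = 0.722 and 0.293). CRYAB, a small heat shock protein outside the symbol rule, rose in pregnant animals on both days, by 0.81 ± 0.184 on day 15 and 1.37 ± 0.160 on day 18 (limma adjusted p = 0.0120 and 2.14e-06). It belongs to a list of 24 heat shock factors and cytosolic partners, of which 3 rose on day 15, beside 4.04% of all genes, and 4 rose and 1 fell on day 18, beside 12.6% and 10.4% of all genes. The prefoldin subunits VBP1 and PFDN6, which hand actin and tubulin to the CCT ring, rose on both days (0.31 and 0.25 on day 15, 0.31 and 0.27 on day 18), and the subunit PFDN5 fell on day 18 (-0.31). In the same list 21 genes did not pass on day 15, and 19 did not on day 18.

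The BAG family was mixed. BAG1, a nucleotide exchange factor that links HSP70 to the proteasome, stood at 9.89, 9.84 and 9.80 in pregnant animals of day 15, against 9.57, 9.40 and 9.56 in cyclic animals (0.33 ± 0.0823, limma adjusted p = 0.0194). That call ended without cyclic animal 2 or without pregnant animal 1, and on day 18 the difference was 0.18 ± 0.0713 (limma adjusted p = 0.0747). BAG5, also an exchange factor of HSP70, was higher on day 18 (0.30 ± 0.0993, limma adjusted p = 0.0409) and BAG2, which restrains the ubiquitin ligase STUB1, was lower (-0.35 ± 0.119, limma adjusted p = 0.0444). Both overlapped on that day. The lowest pregnant animal had 7.99 and the highest cyclic one 8.12 in BAG5. In BAG2 the highest pregnant animal had 10.05 and the lowest cyclic one 10.04. On day 15 the same genes stood at 0.38 and -0.44 with no overlap between groups, and did not pass (limma adjusted p = 0.0601 and 0.0682). With 1 animal of day 15 left out, BAG5 lay between 0.26 and 0.48 and passed without cyclic animal 1 (limma adjusted p = 0.0280). BAG5 also passed where dim probe sets were left out (limma adjusted p = 0.0455). BAG2 lay between -0.55 and -0.22, at -0.22 without pregnant animal 1, and passed without pregnant animal 2 or 3 (limma adjusted p = 0.0405 and 0.0458). The day 18 calls of BAG5 and BAG2 ended in 6 and 5 of 8 fits that left out 1 animal, in both without pregnant animal 2, 3 or 4 or cyclic animal 1, in BAG5 without cyclic animal 2 or 4 and in BAG2 without cyclic animal 3. The BAG2 call also ended with replicate number as a block, with the mean of its probe sets and on the day's 8 arrays alone (limma adjusted p = 0.0610, 0.0728 and 0.0764), and that of BAG5 in the last 2 of these settings (0.123 on the 8 arrays and 0.0753 for the mean). BAG3 differed by 0.09 on both days. HSPG2, the proteoglycan, was lower on day 18 in every pregnant animal (-0.40 ± 0.119, limma adjusted p = 0.0207), a call that ended without cyclic animal 1 or pregnant animal 3.

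**Figure D4:**
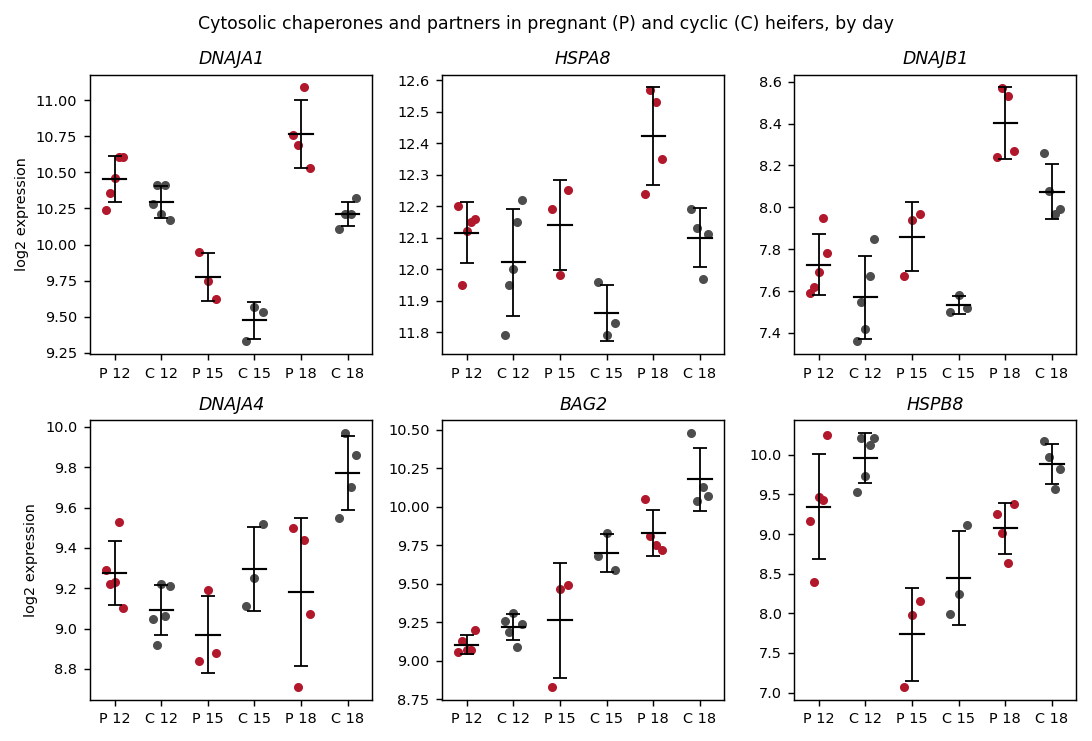
Log2 expression (y axis) of 6 cytosolic chaperone and co-chaperone genes in each pregnant (P, red) and cyclic (C, grey) heifer on days 12, 15 and 18, with mean and SD as bars; days were normalised separately. On day 18 DNAJA1 and HSPA8 lie higher, and DNAJA4 and HSPB8 lower, in all pregnant animals; HSPB8 did not pass the threshold.

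The 6 mitochondrial genes all stood above 0 on both days, and none passed in the fit on 24 arrays. The share of all genes above 0 was not computed. On day 18 they lay between 0.12 for DNAJA3 and 0.22 for DNAJC11, with 95% intervals that together spanned -0.03 to 0.39. HSPD1 and HSPE1, which form the mitochondrial chaperonin and are next to each other in the genome, differed by 0.17 ± 0.0712 and 0.20 ± 0.0849 (limma adjusted p = 0.107 and 0.117). Both passed without pregnant animal 1 (limma adjusted p = 0.0494 and 0.0367), and DNAJC11 passed with quantile normalisation (limma adjusted p = 0.0488). HSPA9, the mitochondrial HSP70, differed by 0.24 ± 0.0782 on day 15, with no overlap (limma adjusted p = 0.0851), and by 0.14 on day 18.

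In the biopsies, 7 of the 67 genes had an unadjusted p below 0.05 with IFNA against placebo (10.4%, beside 10.0% of all genes), 6 with IFNA against PBS (8.96%, beside 11.2%) and 2 with placebo against PBS (2.99%, beside 3.12%). These comparisons share arrays, so they do not support one another. The largest differences between IFNA and placebo were in J-domain genes. DNAJB5 stood at 5.11, 5.91 and 5.11 with IFNA, 4.88, 4.13 and 4.63 with placebo and 5.41, 5.11 and 5.30 with PBS. It was above placebo in all IFNA animals (0.83 ± 0.253, limma adjusted p = 0.315) and overlapped PBS. DNAJC17 stood at 8.12, 8.03 and 8.23 with IFNA, against 7.75, 7.58 and 7.77 with placebo and 7.83, 7.83 and 7.84 with PBS, above both (0.43 ± 0.0964 over placebo and 0.29 ± 0.0964 over PBS, limma adjusted p = 0.119 and 0.324). DNAJA1 stood at 10.68, 11.32 and 10.85 with IFNA, also above all placebo animals (10.36, 10.62 and 10.59) and all PBS animals (10.49, 10.50 and 10.51), and did not pass (0.43 ± 0.161 over placebo, limma adjusted p = 0.478).

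DNAJC12 and DNAJC6, a clathrin-uncoating J-domain protein, differed by 0.92 ± 0.392 and 0.82 ± 0.248 between IFNA and placebo (limma adjusted p = 0.562 and 0.312). DNAJC12 stood at 7.64, 8.69 and 9.36 with IFNA, 7.64, 7.99 and 7.31 with placebo and 7.48, 8.03 and 7.45 with PBS, with overlap. Its difference from placebo was 1.38 without IFNA animal 1 and 0.52 without IFNA animal 3. Of the endoplasmic reticulum genes, 13 of 15 stood below placebo (median -0.11, against -0.01 over all genes). None of them passed, and only PDIA4 had an unadjusted limma p below 0.05. PDIA4 stood at 9.21, 9.04 and 9.15 with IFNA, against 9.57, 9.67 and 9.29 with placebo (-0.38 ± 0.118, limma adjusted p = 0.334). The share of all genes below placebo was not computed. Against PBS 9 of the 15 were negative, and with placebo against PBS 12 were positive. HSPB6, a small heat shock protein of smooth muscle, stood at 7.17, 7.21 and 7.08 with IFNA, 8.16, 8.17 and 7.17 with placebo and 7.65, 8.04 and 7.71 with PBS (-0.68 ± 0.252 against placebo, limma adjusted p = 0.465). Without placebo animal 3 the difference was -1.01 and passed (adjusted p = 0.0147, limma). The mean level of 7 smooth muscle markers ranged from 8.14 to 8.91 with IFNA, 8.69 to 9.16 with placebo and 8.37 to 9.46 with PBS, with 0 of 7 past the threshold, and its part in the HSPB6 values was not tested.

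The differences between effects were tested directly. The pregnancy effect on BAG1 was larger on day 15 than on day 12, by 0.41 ± 0.104 (limma adjusted p = 0.0395), the single member past the threshold there (1.49%, beside 2.53% of all genes). That call ended in 13 of 16 fits that left out 1 animal (all but those without cyclic animal 1, pregnant animal 1 or pregnant animal 5 of day 12) and with replicate number as a block (limma adjusted p = 0.0502). The change for DNAJB11 was 0.31 ± 0.0913 (limma adjusted p = 0.0869) and that for CCT6A 0.33 ± 0.138 (limma adjusted p = 0.255). Between days 15 and 18 no member's pregnancy effect changed past the threshold, beside 0.251% of all genes; the change for PDIA3 was 0.32 ± 0.112 (limma adjusted p = 0.328), and 4 members (5.97%, beside 9.58% of all genes) had an unadjusted p below 0.05. No member's IFNA effect differed from its pregnancy effect past the threshold on day 15 (0.502% of all genes) or on day 18 (1.45%), with 14 and 10 members at an unadjusted p below 0.05. These are 20.9% of the members for day 15 and 14.9% for day 18, beside 15.6% of all genes for each day. The gap was -0.40 ± 0.100 for DNAJB11 on day 15 and -0.47 ± 0.139 for PDIA3 on day 18 (limma adjusted p = 0.0777 and 0.100).

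Cell type markers moved in the same animals. Over all genes, 12.6% were higher and 10.4% lower on day 18, and 4.04% and 2.34% on day 15. In the biopsies 1.14% of all genes passed for IFNA against placebo and 1.21% against PBS. On day 18, 4 of 7 endothelial markers were lower in pregnant animals (PLVAP, PECAM1, VWF and KDR), and the list's mean level was 7.84 to 8.15, against 8.24 to 8.88 in cyclic animals. Of 10 epithelial markers CDH1 and CLDN4 were higher on both days and KRT18 lower on day 18, and the list's mean level overlapped on day 18, at 9.73 to 10.01 in pregnant and 9.66 to 9.99 in cyclic animals. Of 8 stromal markers PDGFRA was higher on both days, and COL3A1 and THY1 were lower on day 18. IGHM was the only one of 8 plasma cell markers to pass (1.28), and CSF1R the only one of 8 leucocyte markers (0.85), on day 18, both higher. The mean level of the whole leucocyte list was also higher without overlap on day 18. It was 7.594 to 7.914 in pregnant and 7.233 to 7.585 in cyclic animals. TPPP3 was lower on day 18 among 3 markers of ciliated cells. On day 15 PECAM1 was the endothelial marker that passed, at -0.69, and the list's mean level overlapped (7.25 to 7.63 in pregnant and 7.50 to 7.83 in cyclic animals). In the biopsies CSF1R and IGHM were higher with IFNA than with placebo, and PLVAP and PECAM1 lower with IFNA than with PBS. The leucocyte list's mean level was 7.30 to 7.37 with IFNA, above placebo (6.58 to 7.15) and PBS (6.95 to 7.15). That of the endothelial list was 7.373 to 7.724 with IFNA, 7.716 to 8.009 with placebo and 8.134 to 8.229 with PBS. Placebo thus also lay below PBS without overlap in this list, while IFNA and placebo overlapped. None of 8 trophoblast markers passed, with a mean level of 4.42 to 4.56 in pregnant and 4.43 to 4.56 in cyclic animals of day 18. The part of these cell types in the chaperone differences was not tested.

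Levels over the 9 groups were compared after quantile normalisation of all 33 arrays, as a description with no test. The highest and the lowest group mean of a member lay 0.719 apart in the median member, and 13 of 67 members spanned 1 or more. These spans were not computed over all genes, so they do not set the members apart from the array as a whole. CALR spanned most, 2.38, with 11.50 ± 0.103 in cyclic animals of day 18 (SD, n = 4) and 9.12 ± 0.639 in PBS biopsies (SD, n = 3), and with all 3 biopsy groups below all slaughter groups in the mean. PDIA3 likewise was highest in pregnant animals of day 18 (11.31) and lowest in PBS biopsies (9.95). These extremes set tissues against each other that differ in collection, GAPDH signal difference and part of the horn.

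Within the slaughter samples, a member was counted where 2 days differed by at least 1 log2 with no overlap. Day 12 also lay apart from the later days in the GAPDH control, and the part of this in the counts was not tested. In pregnant animals SDF2L1 was higher on day 15 than on day 12 (6.57 against 5.56), the single gene of 67 that was higher, beside 3.45% of all genes, and none was lower, beside 2.75%. No member met this between days 18 and 15 in pregnant animals, beside 1.4% of all genes higher and 1.08% lower; SDF2L1 came closest, with 5.58 on day 18 against 6.57 on day 15. In cyclic animals none was higher on day 15 than on day 12 (1.59% of all genes), and DNAJC6, HSPB6 and HSPB8 were lower (beside 2.42%), by 1.49, 1.32 and 1.23. HSPB6 averaged 6.97 on day 15 and 8.29 on day 12 in these animals. Between days 18 and 15, CALR was higher (11.50 against 10.47, beside 0.742% of all genes) and SDF2L1 lower (5.32 against 6.48, beside 0.862%) in cyclic animals. With array-median scaling the CALR difference was 0.79, under the 1 log2 required, and SDF2L1 stayed lower in cyclic animals (-1.05). HSPB3 was then counted as lower on day 18 in cyclic and in pregnant animals (-1.11 and -1.17). HSPB3 is the dimmest member, at 2.52 to 3.34 in the deposited values. The array medians taken off were 6.5 on day 15 and 7.25 on day 18. With the deposited values the counts were 5, 12, 5 and 9 of 67 over the same 4 comparisons, and the median of all genes itself shifted by -0.28, 0.69, -0.26 and 0.67.

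**Figure D5:**
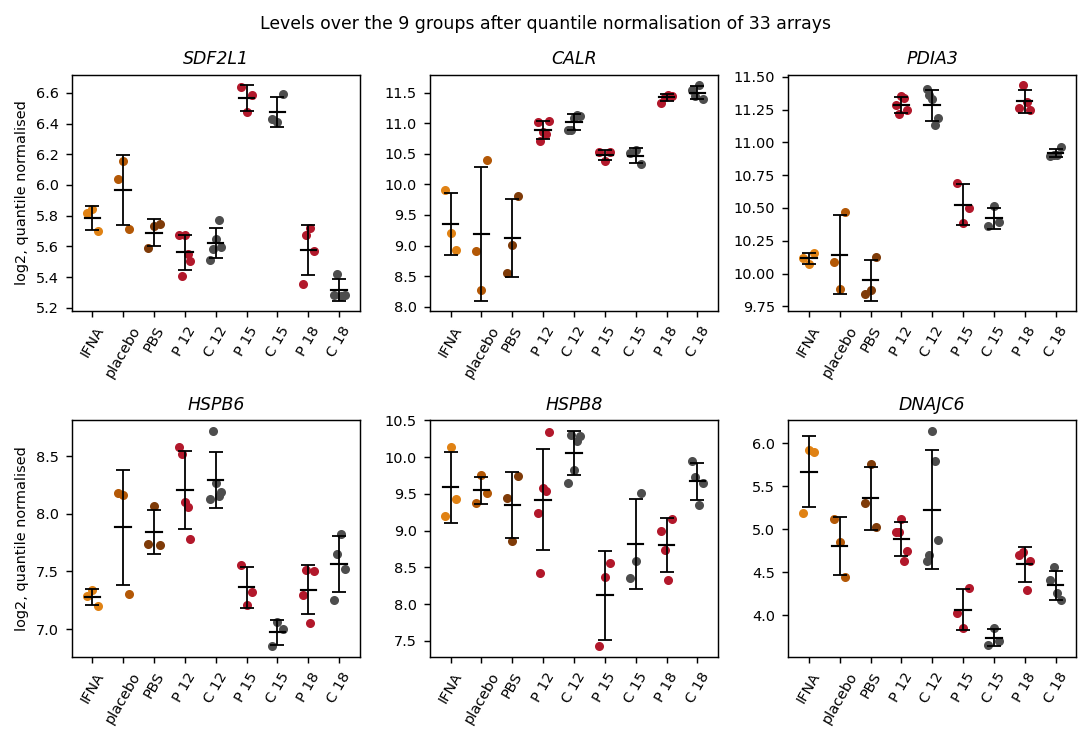
Log2 levels after quantile normalisation over 33 arrays (y axis) of 6 genes in each animal of the 9 groups, with mean and SD as bars; P is pregnant, C is cyclic and the number is the day. SDF2L1 peaks on day 15 in both pregnant and cyclic animals, CALR and PDIA3 are lowest in the biopsies, and HSPB6, HSPB8 and DNAJC6 have lower means on day 15 than on day 12.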

How the data were processed

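Endometrial RNA of 33 heifers was hybridised to Affymetrix bovine arrays, and the authors deposited log2 values per probe set, made with RMA in affy per the submitters' processing notes, whose versions are not given in the sources used here. Of 24128 probe sets, 112 controls were left out and 24016 tested. Symbols came from the array annotation (13292 probe sets with 1 symbol, 86 with several, 10638 with none); 66 of 67 members matched RefSeq by gene identifier and none changed its symbol. The members and gene lists were chosen with earlier results of these data known.

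In R 4.3.3, lmFit and eBayes of limma 3.58.1 estimated 1 mean for each group, without covariates, from the 9 biopsy arrays, the 24 slaughter arrays, or all 33 for IFNA against pregnancy. Tests were two-sided, with Benjamini-Hochberg adjustment over all probe sets and a threshold of 0.05; the fit was tested on simulated data. Percentages of all genes use 1 probe set per gene. The labels call the animals biological replicates; their number limits the precision. Same-numbered animals did not deviate together in every pair (correlations between -0.337 and 0.368), so numbers were not used as pairs.

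Genes were named if past the threshold (up to 12 per comparison, extended on day 18 to all 16 after their values were seen), if among the 4 largest differences in either direction, or as fixed chaperones. In the other comparisons only those on which the text turns are given. Alternatives were other normalisation, probe set choice, weights, filters, priors, a GAPDH covariate for the biopsies, a replicate block and each array left out.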

Additional observations from a re-analysis of the deposited data

Results flagged for a closer look

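In 3 of 64 groups of values examined, 1 animal stood apart from the rest of its group. These were the groups of members with an unadjusted limma p below 0.05 on day 12 or day 18. Day 15 and the biopsies were not examined. The rule flags about 1 in 20 groups by chance, a rate that need not hold for groups picked by p. DNAJC12 stood at 10.17 in pregnant animal 3 of day 12, against 6.47 to 7.54 in the other pregnant animals of that day. Without that animal its day 12 difference was 0.34, against 0.99 with it, and neither passed. DNAJC19, a mitochondrial import factor, stood at 8.93 in pregnant animal 2 of day 18, against 8.69 to 8.72 in the others. PDIA4 stood at 9.84 in cyclic animal 1 of day 18, against 9.70 to 9.71 in the other cyclic animals, and its call of day 18 ended without that animal.

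The pregnancy effect on BAG1 differed between day 15 and day 12 by the test of the difference itself, by 0.41 ± 0.104 (limma adjusted p = 0.0395). BAG1 stood lower in cyclic animals of day 15 than in pregnant ones, while on day 12 the difference was -0.08.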

How the results depend on the processing

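Of 1730 alternative values for single genes, 1599 kept their direction and side of the threshold, 97 fell short of it, 33 passed it and 1 turned its sign. That one was DNAJC19 in the IFNA effect minus the day 15 pregnancy effect, 0.19 for the mean of its probe sets, and the cause was not tested. Counts of members past the threshold in the fit on the compared arrays alone dropped to 0 on day 15, where fewer arrays, all of that day, estimate the spread. The cause of the drop was not tested. On day 18 that fit gave 12, of which 8 were among the 16. Thus 8 calls ended (BAG2, BAG5, CCT2, CCT3, CCT5, CCT6A, DNAJA4 and DNAJB1) and 4 members passed that had not, HSPA12B, HSPA2 and HSPB8 among them. With array weights 6 members passed for the IFNA effect minus the day 15 pregnancy effect and 3 for day 18; the cause was not tested. With the replicate block the BAG1 change between days 12 and 15 ended, leaving 0, while 6 members passed on day 15 and 15 on day 18. When 1 array was left out, 1 to 6 members passed on day 15 (1 without cyclic animal 2, 2 without pregnant animal 1 and 3 without pregnant animal 3) and 7 to 20 on day 18 (7 without pregnant animal 3, 8 without pregnant animal 2, 10 without cyclic animal 3). The range was 0 to 2 for the change from day 12 to day 15, and 0 to 1 for IFNA over placebo (1 without placebo animal 3) and for the IFNA effect minus either pregnancy effect (1 without placebo animal 2 or 3, and for day 18 without pregnant animal 1). For days in pregnant animals, 0 to 2 members met the rule between days 15 and 12 (0 without day 15 animal 1, 2 without day 15 animal 2) and 0 to 3 between days 18 and 15 (3 without day 15 animal 2; 1 without day 15 animal 3 or day 18 animal 2 or 3), and in cyclic animals 1 to 2 between days 18 and 15 (1 without day 18 animal 3). The deposited values gave 5, 12, 5 and 9 for the 4 comparisons of days, and scaling by array medians gave 1 for days 18 and 15 in pregnant animals, and in cyclic animals 0 higher and 2 lower, against 1 each. Groups of 3 to 5 arrays limit what can be detected: the median SE of a member's difference was 0.139 in the biopsies, and 0.0779, 0.101 and 0.0871 on days 12, 15 and 18.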
